A study of Mus musculus with 11 samples.

Results

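The genes described here are the numbered Zfp (zinc finger protein) genes of mouse chromosomes 7, 13 and 17. They were picked by name and position, under a rule set with earlier results of these data known. The rule took every gene of the deposited count table whose symbol is Zfp followed only by digits, without Zfp57. All exons of a gene had to lie on 1 of these chromosomes. This gave 162 of the 25239 genes in the table, with 90 on chromosome 7, 32 on chromosome 13 and 40 on chromosome 17. Another 202 numbered Zfp genes lie elsewhere in the genome.

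The series holds 11 samples of J1 cells, a line of mouse embryonic stem cells, in which DNA methyltransferase genes are mutated. These enzymes methylate cytosine. At day 0, RNA was sequenced from 3 samples, which give the genotypes compared here, labelled TKO, TKO_FL and TKO_602, with 1 library each. Other samples' labels spell the first genotype DNMT TKO. The series' design text joins the suffixes of TKO_FL and TKO_602 to TKO with a plus sign, and the sources used here do not spell them out or say whether a genotype is 1 clone. All 3 were grown on mitomycin-treated mouse embryonic fibroblasts in serum with LIF, and polyadenylated RNA was enriched. The other 8 samples, immunoprecipitated DNA, were not analysed here.

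Most numbered Zfp genes encode proteins with a row of C2H2 zinc fingers, each finger reading a few bases of DNA, and many also carry a KRAB domain. The KRAB domain recruits the scaffold protein TRIM28, which brings the histone methyltransferase SETDB1, so that the bound stretch, often a retroelement, is marked by histone H3 lysine 9 methylation and, in embryonic stem cells, by DNA methylation. The genes arose largely by tandem duplication and therefore sit side by side in clusters, several of them on the chromosomes described here. Not every numbered Zfp gene is of this kind: Zfp36 encodes tristetraprolin, which binds AU-rich elements of mRNA, and Zfp598 encodes a ubiquitin ligase of stalled ribosomes.

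Dnmt1, the maintenance methyltransferase, was read first as a check of the labels and stood at 159, 3364 and 2444 CPM, where CPM is a gene's reads scaled to the library's total of gene reads, corrected by TMM. Wherever 3 values are given for a gene they are in the order TKO, TKO_FL and then TKO_602. The libraries held 21133660, 19573689 and 43158441 gene reads in that order. With 1 library per genotype no difference below has a replicate check or a test, and each interval is the exact 95% binomial one for the ratio of fragments in the 2 libraries, which covers counting error only. A log2 fold is taken on CPM plus 1, which understates the change of low genes, while the intervals carry no pseudocount and can therefore lie beyond the fold. Pluripotency markers were abundant in all 3 libraries (10 genes, summed CPM 6170, 7509 and 7619 in the order TKO, TKO_FL, TKO_602, none at 0). Other cell types' markers differed: the 10 primitive endoderm genes summed to 993, 131 and 298 CPM, the 12 fibroblast feeder genes to 626, 385 and 564, the 8 formative and primed genes to 389, 344 and 104, and the 10 2-cell-like genes in the table to 13.7, 12.2 and 1.12. The feeder genes did not move together. In TKO_602 against TKO 4 of the 11 measured were at least 2-fold lower and 0 higher, against 8.06% and 11.0% of all genes. Col3a1 (29.5, 25.3 and 43.8 CPM) and Pdgfrb (8.01, 6.60 and 15.1) were highest in TKO_602. The formative and primed genes include Dnmt3b, itself a DNA methyltransferase gene, at 71.7, 34.0 and 11.9 CPM. None of the listed marker genes was at 0, except 6 of the 2-cell-like genes in TKO_602 (Zscan4b, Zscan4d, Zscan4f, Zfp352, Tcstv1 and Tcstv3). Their part in the values below was not tested, and in bulk RNA fewer cells of a type and less RNA per cell cannot be told apart. The alignment of TKO_602 was read from a different folder, per the file headers, so in its comparisons the genotype cannot be told apart from a batch of libraries.

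The promoters of the clusters differ in their letters, and the sequences that show this come before the values. RefSeq (assembly GRCm38.p6, the mm10 build) gave a start for 144 of the 162 genes, and the 250 bases before each start were read. These held a median of 9 CG dinucleotides, the sites at which DNA methyltransferases act: 10.5 on chromosome 7, 6.5 on chromosome 13 and 8.5 on chromosome 17, against 16 over the 11005 measured genes with a RefSeq promoter, 9 over all 18623 genes with one, measured or not, and 11 over the numbered Zfp genes elsewhere. The stretches before 4 genes that stand out in the comparisons below are shown with each CG in capitals. Zfp953 (chr13:67360573-67360822, minus strand, 6 CG) and Zfp459 (chr13:67421419-67421668, minus strand, 8 CG) belong to the chromosome 13 cluster, and Zfp30 (chr7:29783718-29783967, plus strand, 7 CG) and Zfp819 (chr7:43606919-43607168, plus strand, 17 CG) to 2 clusters of chromosome 7.
Zfp953: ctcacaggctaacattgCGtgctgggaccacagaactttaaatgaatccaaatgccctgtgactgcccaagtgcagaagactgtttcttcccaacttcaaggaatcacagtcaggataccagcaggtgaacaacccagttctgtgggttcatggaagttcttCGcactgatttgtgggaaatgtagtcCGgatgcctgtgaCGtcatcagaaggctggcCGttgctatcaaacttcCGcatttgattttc
Zfp459: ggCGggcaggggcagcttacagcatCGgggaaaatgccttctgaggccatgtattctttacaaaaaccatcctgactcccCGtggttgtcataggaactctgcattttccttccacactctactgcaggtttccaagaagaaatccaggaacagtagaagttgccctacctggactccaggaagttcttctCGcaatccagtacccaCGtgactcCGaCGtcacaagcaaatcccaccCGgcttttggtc
Zfp30: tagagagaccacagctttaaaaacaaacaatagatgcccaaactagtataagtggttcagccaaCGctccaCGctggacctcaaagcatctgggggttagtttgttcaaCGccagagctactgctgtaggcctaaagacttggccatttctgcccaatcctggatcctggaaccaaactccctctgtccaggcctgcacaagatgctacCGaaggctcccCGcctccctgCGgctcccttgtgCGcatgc
Zfp819: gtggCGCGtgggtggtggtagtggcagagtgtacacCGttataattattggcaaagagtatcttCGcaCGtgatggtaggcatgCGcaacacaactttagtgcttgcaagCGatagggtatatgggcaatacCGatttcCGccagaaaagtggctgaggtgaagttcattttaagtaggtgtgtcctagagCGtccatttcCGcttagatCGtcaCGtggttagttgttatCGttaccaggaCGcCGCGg
The stretch before Zfp819 is CG-rich beside the other 3, which hold 8 or fewer.

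A 13-letter word, ACTACATTTCCCA on either strand, was most frequent in the promoters of 2 clusters. It is the word of that length found in the most member promoters, so its count among them chose it. It stood in 22 of the 144 promoters (15.3%), that is in 13 of 82 on chromosome 7, 9 of 26 on chromosome 13 and 0 of 36 on chromosome 17. Of all 18623 RefSeq promoters matched to the count table's genes, 110 held it (0.591%), and among those of 157 numbered Zfp genes on other chromosomes 4 did (2.55%). On chromosome 7 the cluster from Zfp180 to Zfp575 had it in 3 of 10 promoters and that from Zfp60 to Zfp850 in 1 of 5. The cluster from Zfp84 to Zfp146 had it in 9 of 14 promoters. The windows of 6 of these 9 genes are shown with the word in capitals and 20 bases on either side where the stretch before the start allows: Zfp790 (chr7:29815947-29815999, plus strand), Zfp940 (chr7:29853654-29853706, minus strand), Zfp420 (chr7:29859900-29859952, plus strand), Zfp383 (chr7:29908456-29908508, plus strand), Zfp74 (chr7:29954085-29954137, minus strand) and Zfp14 (chr7:30051397-30051430, minus strand).
Zfp790: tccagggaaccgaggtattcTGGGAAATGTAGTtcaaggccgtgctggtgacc
Zfp940: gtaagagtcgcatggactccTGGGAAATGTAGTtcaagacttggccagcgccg
Zfp420: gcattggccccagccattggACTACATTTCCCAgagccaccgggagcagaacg
Zfp383: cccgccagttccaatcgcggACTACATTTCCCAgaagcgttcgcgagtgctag
Zfp74: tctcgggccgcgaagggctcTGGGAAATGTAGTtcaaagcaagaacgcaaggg
Zfp14: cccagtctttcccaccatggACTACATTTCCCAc
In Zfp790, Zfp940 and Zfp74 the word reads as its reverse complement on the gene's strand, and in Zfp420, Zfp383 and Zfp14 as spelled. On chromosome 13 the cluster from Zfp712 to Zfp273 had it in 8 of 17 promoters, and 4 of them are shown: Zfp759 (chr13:67128155-67128207, plus strand), Zfp457 (chr13:67306460-67306512, minus strand), Zfp953 (chr13:67360616-67360668, minus strand) and Zfp273 (chr13:67813728-67813780, plus strand).
Zfp759: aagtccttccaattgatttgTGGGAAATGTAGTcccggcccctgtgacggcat
Zfp457: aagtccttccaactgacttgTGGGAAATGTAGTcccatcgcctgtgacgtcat
Zfp953: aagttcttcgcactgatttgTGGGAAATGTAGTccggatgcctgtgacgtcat
Zfp273: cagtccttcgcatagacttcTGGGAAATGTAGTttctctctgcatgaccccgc
All 9 chromosome 13 promoters with the word carry it as the reverse complement, at 17 to 179 bases from the start.

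On chromosome 17 another word marked the largest cluster. The E-box CACGTG, a palindrome that reads alike on both strands, stood in 8 of 17 promoters of the cluster from Zfp677 to Zfp946, against 6.80% of all 18623 promoters and 11.1% of all members' promoters. The 8 promoters hold 6 separate sites, because the divergent pairs Zfp942 with Zfp943 and Zfp944 with Zfp758 each share 1 site between their starts. One gene per site is shown, with the E-box in capitals: Zfp820 (chr17:21845853-21845898, minus strand), Zfp942 (chr17:21962493-21962538, minus strand), Zfp947 (chr17:22166023-22166068, minus strand), Zfp994 (chr17:22225749-22225794, minus strand), Zfp944 (chr17:22361404-22361449, minus strand) and Zfp946 (chr17:22424172-22424201, plus strand).
Zfp820: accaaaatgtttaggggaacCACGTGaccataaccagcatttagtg
Zfp942: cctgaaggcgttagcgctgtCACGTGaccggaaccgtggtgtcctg
Zfp947: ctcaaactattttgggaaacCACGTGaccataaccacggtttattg
Zfp994: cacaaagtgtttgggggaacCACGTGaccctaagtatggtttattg
Zfp944: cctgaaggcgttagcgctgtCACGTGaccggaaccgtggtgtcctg
Zfp946: ttgaagtgtttggggggaacCACGTGaccg
The windows of Zfp942 and Zfp944 are the same letter for letter, and over the whole 250 bases these 2 promoters are 89.6% identical. Zfp943 and Zfp758, on the other side of the same sites, are 96.8% identical. The median over all 4276 pairs of members on 1 chromosome was 58%, and 58.8% over the 552 pairs within a cluster, and 25 pairs were at least 70% identical. The other words searched on both strands were TGACGTCA (the CRE), in 6 member promoters against 2.01% of all promoters, and CCGGAAGT (an ETS word), in 14 against 3.82%. No 2 matches of different words overlapped in a member. A match describes letters and is no evidence of a bound factor.

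Levels of the Zfp genes were modest. Per kilobase of exon the 156 genes that reached 1 CPM in some library had a median of 3.49, 2.87 and 3.23 CPM per kb, against 7.10, 7.31 and 7.87 over all 13948 measured genes and 3.90, 3.80 and 4.13 over 179 measured numbered Zfp genes elsewhere. The other 6 stayed under 1 CPM in every library. Zfp366, a gene known from dendritic cells, had 0 reads in all 3 libraries, Zfp457 had 0 in TKO, Zfp389 had 0 in TKO_602 and Zfp536 had 0 in TKO_FL. Their highest counts in the other libraries were 9 reads or fewer, so their levels cannot be ordered at this depth.

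By the mean over the 3 libraries, the highest levels per kilobase belonged to genes of chromosomes 7 and 17. On chromosome 7, Zfp428 stood at 71.3, 49.2 and 24.3 CPM per kb, and Zfp568 at 36.7, 56.5 and 40.8. Zfp568 encodes a KRAB protein known to repress a placental transcript of Igf2, and it lies in the cluster from Zfp84 to Zfp146. Zfp296, a partner of the pluripotency network, had 27.0, 67.8 and 31.1 CPM per kb. Zfp36 followed with 29.1, 52.1 and 43.3, and Zfp710 with 32.4, 38.3 and 40.9. On chromosome 17, Zfp598 led with 47.3, 42.2 and 50.4 CPM per kb, well above Zfp229 (13.1, 19.9 and 19.7) and Zfp414 (14.1, 14.2 and 19.4). The highest on chromosome 13 by the mean over the libraries was Zfp367 with 11.5, 18.3 and 13.6 CPM per kb, although Zfp459 (14.5) and Zfp131 (11.8) stood above it in TKO and Zfp346 (15.3) in TKO_602. No chromosome 13 gene reached the level of the 5 leading genes of chromosome 7. By median over all its members, chromosome 13 was also lowest, with 2.34, 1.63 and 1.84 CPM per kb against 3.25, 2.88 and 2.97 on chromosome 7 and 3.55, 3.10 and 3.92 on chromosome 17.

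TKO_FL against TKO showed few changes of 2-fold, and the share of genes below 0 differed between the chromosomes. Of 156 members measured (at least 1 CPM in either library), 3 were at least 2-fold higher, against a background of 3.24% of all 13563 genes measured, and 4 were at least 2-fold lower, against 2.5%. Both shares lie near the background or below it. The median log2 fold was -0.14, and 100 of 156 lay below 0, against 50.0% of all genes. By chromosome the median was -0.16 on chromosome 7 (56 of 88 below 0), -0.35 on chromosome 13 (25 of 28) and 0.01 on chromosome 17 (19 of 40). The other genes of the same chromosomes had medians of -0.02, -0.003 and -0.02. Numbered Zfp genes elsewhere had a median of -0.05, with 58.4% below 0. On chromosome 13 the whole counting interval lay below 0 for 13 of 28 genes and above 0 for 1, against 25.8% and 25.9% of all genes. The chromosome 13 median kept its sign under every alternative tried, between -0.39 and -0.24. Under each scaling of the counts 25 of 28 lay below 0, and with the deposited TPM 22 of 25. The scalings hardly differ for these 2 libraries (TMM factors 0.980 and 0.983), so their agreement does not stand in for a replicate.

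**Figure D1:**
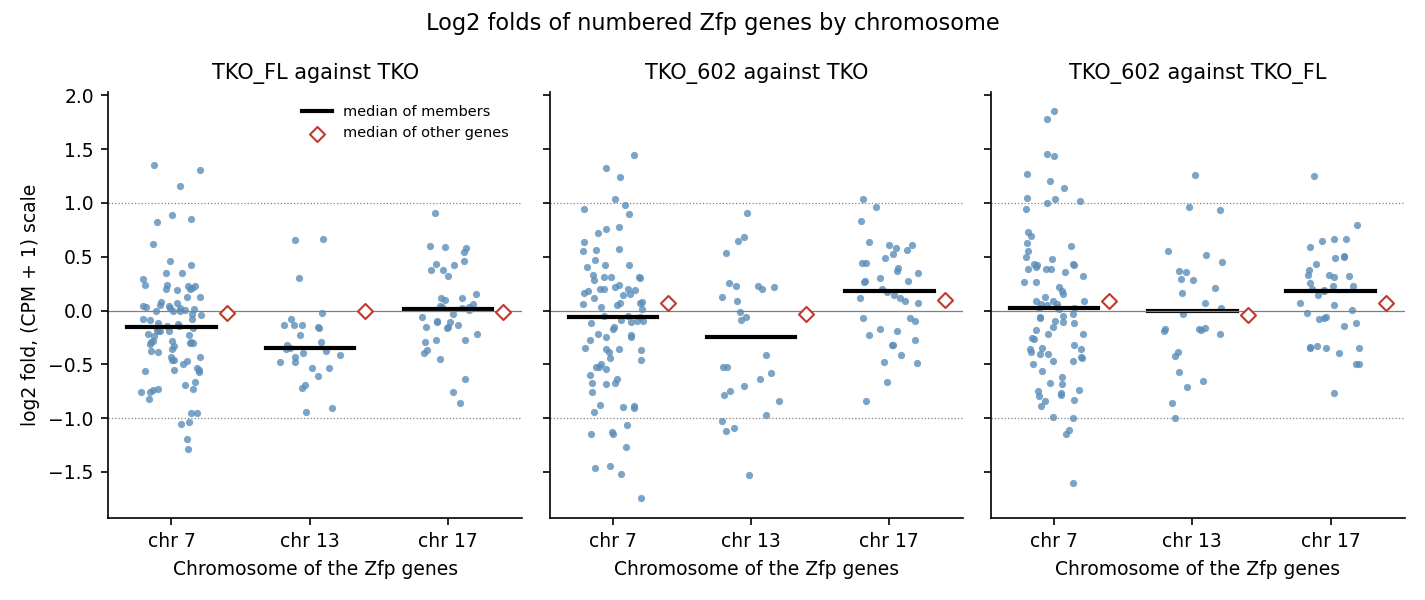
Log2 folds (CPM plus 1 scale, vertical axis) of the measured Zfp genes, 1 point per gene, by chromosome (horizontal axis) in the 3 comparisons; black bars are medians of the Zfp genes, red diamonds medians of the other genes of that chromosome, dotted lines the 2-fold threshold. In TKO_FL against TKO the chromosome 13 bar lies at -0.35 and the diamond beside it near 0, while the chromosome 17 bar lies at 0.01.

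The 7 genes past 2-fold in TKO_FL against TKO were all on chromosome 7. Zfp629 had 4.25, 12.4 and 9.10 CPM (log2 fold TKO_FL against TKO 1.35, interval 1.03 to 2.08). Zfp296 (chr7:19577287-19580656, plus strand) had 41.3, 104 and 47.6 CPM (log2 1.31, interval 1.163 to 1.495). Zfp59 had 29.9, 67.9 and 40.4 CPM (log2 1.15, interval 0.98 to 1.38). Each was highest in TKO_FL, and for Zfp296 and Zfp59 the TKO_602 library stood closer to TKO than to TKO_FL. Among the lower ones, Zfp61 had 7.63, 2.55 and 11.8 CPM (log2 -1.28, interval -2.34 to -0.94). Zfp940 had 12.6, 4.94 and 15.1 CPM (log2 -1.20, interval -1.84 to -0.84). Both were lowest in TKO_FL and highest in TKO_602, although the interval of Zfp940 in TKO_602 against TKO (-0.03 to 0.57) includes 0. Zfp764 had 6.13, 2.44 and 2.83 CPM (log2 -1.05), low in both TKO_FL and TKO_602. Zfp773 had 2.22, 0.57 and 2.25 CPM (log2 -1.03, interval -3.42 to -0.49), too few reads to place its fold closely. Zfp27 (log2 -0.95) and Zfp771 (-0.95) lay just short of 2-fold.

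Zfp genes of the same chromosome were grouped into clusters where consecutive genes lay at most 250 kb apart. This gave 13 clusters of at least 3 genes with 120 members in all, and 42 genes stood alone or in pairs. The largest cluster of chromosome 13 (chr13:67038594-67827000, Zfp712 to Zfp273, 19 genes, 17 measured) held most of that chromosome's genes below 0. In TKO_FL against TKO 16 of its 17 measured genes lay below 0, with a median log2 fold of -0.41 and a range from -0.94 to 0.66. Under each scaling of the counts, which hardly differ for these 2 libraries, it was also 16 of 17, and with the deposited TPM 14 of 14. Summed over the cluster, CPM was 178.2, 130.0 and 116.3. The other 6 measured genes inside the same span, which are Zfp genes whose symbols end in a letter and genes named Rsl, had a median of 0.08, with 3 below 0. One of them, Zfp874b, had 10.5, 4.32 and 12.2 CPM, lowest in TKO_FL. No numbered Zfp gene of the cluster passed 2-fold in TKO_FL against TKO.

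Within that cluster 3 of the more abundant genes were at least 2-fold lower in TKO_602 against TKO (background 8.06% of all genes) and below 0 in TKO_FL against TKO. Zfp459, its most abundant gene (chr13:67405713-67421418, minus strand), had 48.3, 33.2 and 16.1 CPM, log2 folds against TKO of -0.53 (interval -0.75 to -0.34) and -1.53 (interval -1.79 to -1.39). Zfp953 had 17.7, 8.995 and 7.76 CPM, log2 folds of -0.90 (interval -1.37 to -0.61) and -1.09 (interval -1.49 to -0.88). Zfp595 had 10.4, 4.94 and 4.26 CPM, log2 folds of -0.94 and -1.12. All 3 were highest in TKO, and Zfp953 and Zfp595 stood at like levels in the other libraries. Zfp953 and Zfp595 overlap on the same strand and share 399 exonic bases, where a read could not be given to either, and the RefSeq start of Zfp595 lies 10394 bases from the gene end in the count table. Zfp458 was the fourth gene at least 2-fold lower in TKO_602 against TKO, at 1.40, 1.14 and 0.18 CPM. Not every gene of the cluster did so: Zfp748 had 18.4, 17.4 and 20.3 CPM, Zfp85 had 3.28, 2.18 and 5.20, and Zfp712 had 1.74, 1.14 and 4.13. Zfp712, at one end of the cluster, was the 1 gene there at least 2-fold higher in TKO_602 against TKO_FL (log2 1.26). In TKO_602 against TKO, 11 of 17 lay below 0 (48.0% of all genes) with a median of -0.41, a count that became 9 of 17 with library totals as the only scaling.

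**Figure D2:**
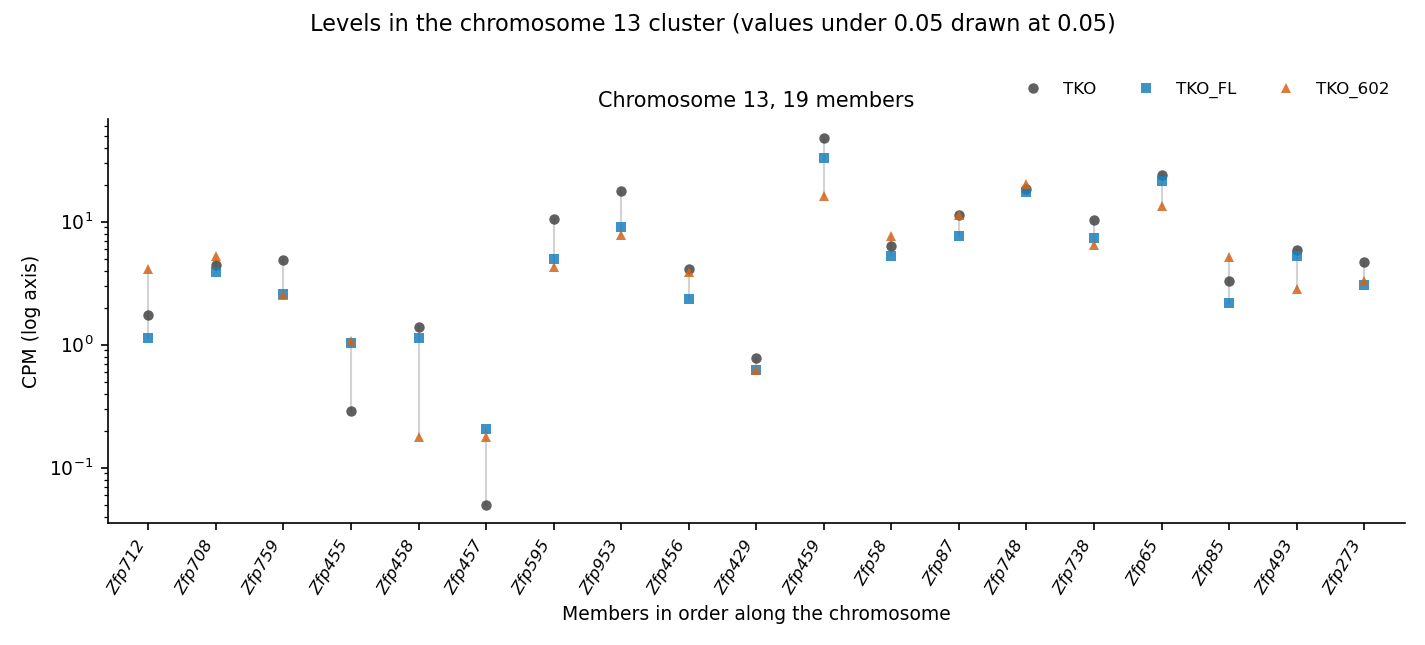
CPM (vertical axis, log scale) of the 19 genes of the chromosome 13 cluster in their order along the chromosome (horizontal axis), with 1 symbol per library and values under 0.05 drawn at 0.05; a grey line joins the 3 libraries of a gene. For 16 of the 17 measured genes the TKO circle lies above the TKO_FL square, and Zfp459, Zfp595 and Zfp953 have the widest gaps between TKO and TKO_602 among genes above 10 CPM in TKO.

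Outside that cluster, 9 of the 11 other measured chromosome 13 genes also lay below 0 in TKO_FL against TKO. Zfp369 had 12.5, 7.38 and 8.39 CPM and Zfp935 had 13.2, 9.77 and 6.25, both highest in TKO. Zfp131, which encodes a BTB-domain zinc finger protein, had 44.4, 35.4 and 26.9 CPM, also highest in TKO. Zfp808 had 32.3, 25.1 and 22.1 CPM. The exceptions were Zfp367, with 44.4, 70.5 and 52.2 CPM (log2 fold 0.66 in TKO_FL against TKO, interval 0.49 to 0.84), and Zfp169, at 2.46, 3.28 and 2.68. Zfp346, whose protein binds double-stranded RNA, was instead highest in TKO_602, at 34.8, 28.3 and 55.2 CPM.

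Chromosome 7 held clusters that moved differently. In the cluster from Zfp84 to Zfp146 (chr7:29768552-30169741, 15 genes, all measured), 11 lay below 0 in TKO_FL against TKO with a median of -0.30, and 11 lay above 0 in TKO_602 against TKO with a median of 0.20. In TKO_602 against TKO_FL, 6 of the 15 were at least 2-fold higher and none lower, against 6.75% and 4.87% of all 13683 genes measured. These comparisons share libraries, so the values are given side by side. Zfp30 had 5.79, 3.95 and 16.0 CPM, log2 folds against TKO of -0.46 and 1.32 (interval 1.07 to 1.88) in that order. Zfp383 had 14.8, 10.2 and 25.95 CPM, and Zfp382 had 10.9, 8.68 and 21.2. These 3 were lowest in TKO_FL and highest in TKO_602. In TKO_FL against TKO, however, the intervals of Zfp30 (-1.18 to 0.06) and Zfp382 (-0.75 to 0.10) include 0. Zfp82, with 7.77, 4.26 and 10.6 CPM, and Zfp14, with 1.83, 1.30 and 3.66, had the same order, as did Zfp940. The intervals of Zfp14 in TKO_FL against TKO (-1.73 to 0.56) and of Zfp940 in TKO_602 against TKO (-0.03 to 0.57) also include 0. Zfp568 went the other way, at 263, 406 and 293 CPM (log2 0.62 in TKO_FL against TKO, interval 0.55 to 0.70), and with it the summed CPM of the cluster was 483.9 in TKO and 593.7 in TKO_FL, although 11 of 15 genes lay below 0. Zfp27 was low in both, at 6.57, 2.91 and 2.61 CPM, and Zfp146 was lowest in TKO_602, at 46.8, 47.3 and 29.0.

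The cluster from Zfp936 to Zfp819 (chr7:43177590-43618279, 5 genes) had all of its genes lower in TKO_602. Zfp936 had 33.4, 33.3 and 14.5 CPM (log2 fold TKO_602 against TKO -1.14, interval -1.42 to -0.98). Zfp819 had 30.1, 41.8 and 13.1 CPM (log2 -1.14, interval -1.43 to -0.96). Zfp658 had 9.75, 6.97 and 3.46 CPM (log2 -1.27, interval -1.93 to -1.05). These 3 were at least 2-fold lower than in TKO, against a background of 8.06% of all 13748 genes measured in that comparison, and TKO and TKO_FL stood closer to each other than to TKO_602 for each. Zfp719, at 18.9, 17.8 and 12.9 CPM, and Zfp715, at 32.5, 37.6 and 29.9, were also lowest in TKO_602. The interval of Zfp715 in TKO_602 against TKO (-0.31 to 0.07) includes 0, however. The 7 other measured genes in the span had a median log2 fold of 0.45, with 1 below 0: EU599041, at 39.9, 24.1 and 19.4 CPM. Zfp936 and Zfp977, which lies in the preceding cluster at 8.69, 8.16 and 4.75 CPM, have promoters that are 90% identical.

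**Figure D3:**
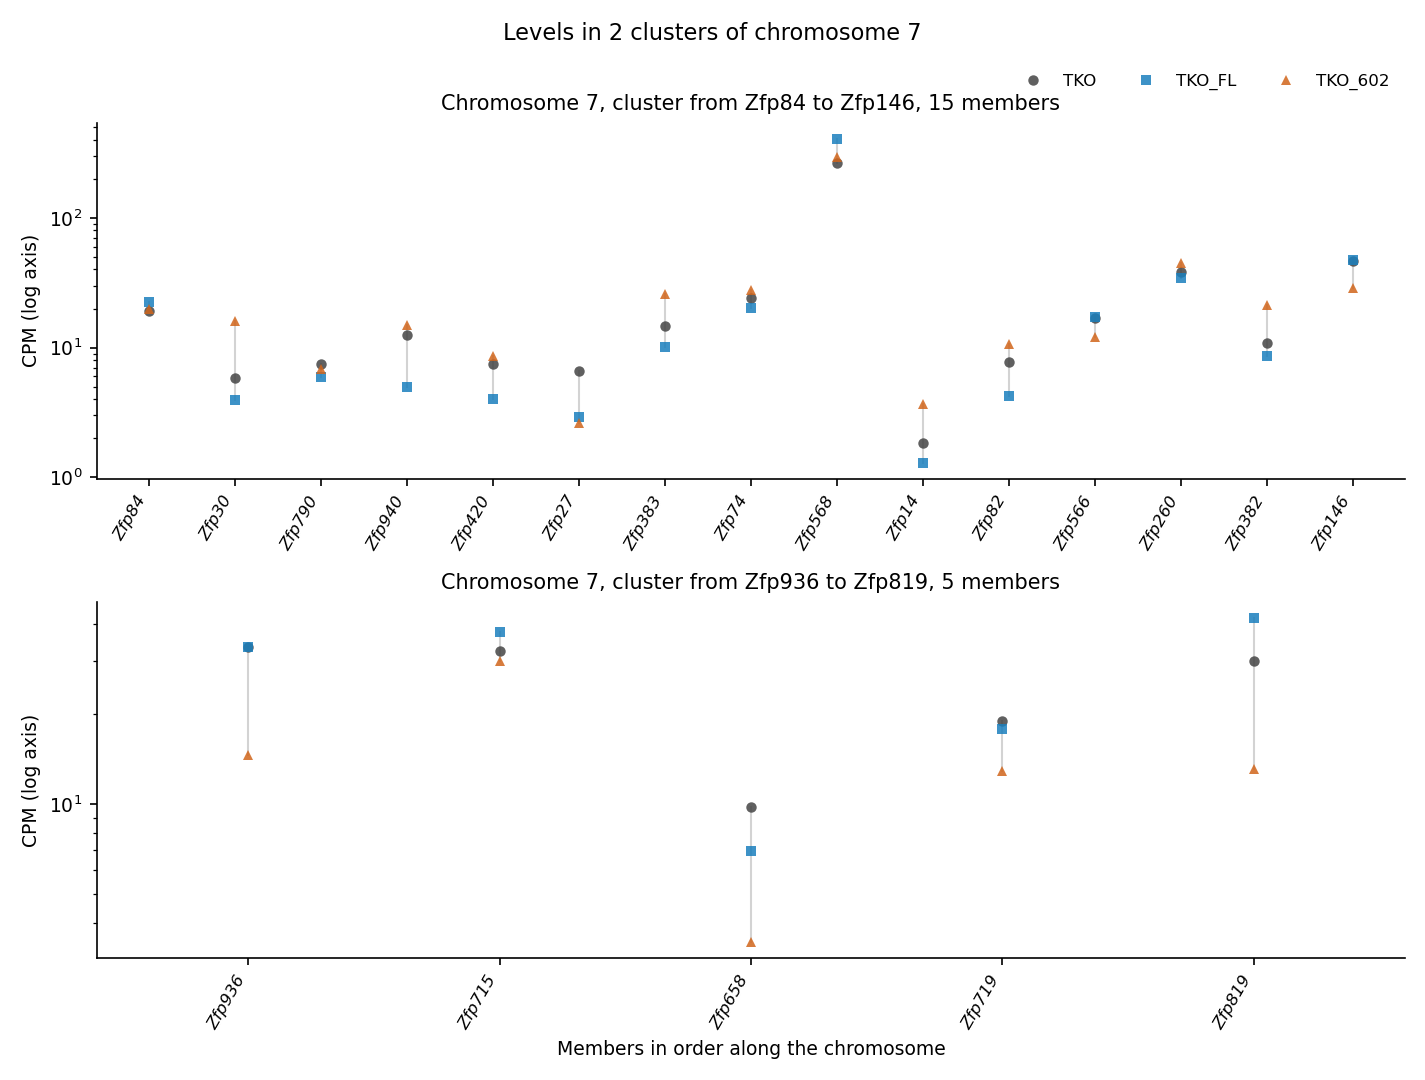
CPM (vertical axes, log scale) in 2 chromosome 7 clusters, genes in their order along the chromosome (horizontal axes), with 1 symbol per library and a grey line joining the 3 libraries of a gene. In the upper cluster Zfp30, Zfp383, Zfp82, Zfp14, Zfp382 and Zfp940 have TKO_FL lowest and TKO_602 highest, with Zfp568 far above the rest; in the lower cluster the TKO_602 triangle is lowest for all 5 genes.

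The other chromosome 7 clusters were mixed. In the cluster from Zfp180 to Zfp575 (chr7:24081897-24587641, 12 genes), 9 of 11 measured genes lay below 0 in both comparisons with TKO, with medians of -0.22 in TKO_FL and -0.23 in TKO_602. Zfp428 had 87.5, 60.3 and 29.9 CPM (log2 -1.52 in TKO_602 against TKO, interval -1.70 to -1.41), and Zfp112 had 4.88, 3.28 and 1.14 (log2 -1.46). Both were highest in TKO and lowest in TKO_602, whereas Zfp61 of the same cluster was highest in TKO_602. In the cluster from Zfp553 to Zfp646 (chr7:127233061-127885996, 10 genes), Zfp771 had 28.6, 14.4 and 7.83 CPM, the lowest fold of all members in TKO_602 against TKO (log2 -1.75, interval -2.14 to -1.59). In the same cluster Zfp688 had 4.35, 4.32 and 13.5 CPM, the highest fold of all members there (log2 1.44, interval 1.19 to 2.13). The extremes of that comparison thus lay in 1 cluster. In the cluster from Zfp60 to Zfp850, Zfp626 had 26.6, 17.7 and 9.13 CPM, log2 fold -1.44 in TKO_602 against TKO, next to Zfp59, which was highest in TKO_FL. The cluster from Zfp787 to Zfp28 opened with Zfp787 at 4.297, 8.58 and 11.6 CPM and the SCAN-domain gene Zfp444 at 17.2, 22.2 and 34.9, both lowest in TKO and highest in TKO_602. In the cluster from Zfp329 to Zfp446, Zfp324 had 8.30, 4.63 and 3.26 CPM and Zfp110 70.1, 61.7 and 62.2. The clusters from Zfp954 to Zfp772 and from Zfp141 to Zfp975 held 4 genes each: Zfp954, at 9.08, 9.67 and 12.99 CPM, had the highest level of the first in TKO, and Zfp141, at 80.1, 49.1 and 51.3, of the second. All 4 genes from Zfp141 to Zfp975 lay below 0 in TKO_FL against TKO, with a median of -0.31. The cluster from Zfp628 to Zfp580, the nearest to the chromosome's start, had medians of -0.25 in TKO_FL and -0.38 in TKO_602 against TKO, although Zfp628 itself had 10.4, 20.2 and 11.4 CPM, highest in TKO_FL.

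On chromosome 17 none of the 40 genes passed 2-fold in TKO_FL against TKO, where 3.24% of all genes were higher and 2.5% lower; a count of 0 among 40 is near that background. Its largest cluster (chr17:21383748-22456689, Zfp677 to Zfp946, 18 genes, all measured) had no gene past 2-fold in any comparison (backgrounds of 11.0% higher and 8.06% lower in TKO_602 against TKO, and of 6.75% and 4.87% in TKO_602 against TKO_FL), with medians of 0.04 in TKO_FL against TKO, 0.19 in TKO_602 against TKO and 0.02 in TKO_602 against TKO_FL. The most abundant gene, Zfp229, had 59.3, 90.2 and 89.0 CPM, and Zfp820 had 10.6, 20.6 and 19.6 (log2 0.90 in TKO_FL against TKO, interval 0.61 to 1.30). Both were lowest in TKO and alike in the other libraries. Zfp52, at 12.7, 9.05 and 6.63 CPM, ran the opposite way, and Zfp948, at 21.6, 23.3 and 13.3, was lowest in TKO_602. The cluster from Zfp871 to Zfp414 (chr17:32765496-33631714, 11 genes) had a median of 0.01 in TKO_FL against TKO, 0.35 in TKO_602 against TKO and 0.31 in TKO_602 against TKO_FL, with 8 and then 9 of 11 above 0 in the last comparisons. Zfp811 had 2.51, 3.38 and 5.85 CPM (log2 0.96 in TKO_602 against TKO), Zfp870 had 18.3, 15.0 and 26.8, and Zfp799 had 27.9, 17.7 and 22.2, lowest in TKO_FL.

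Outside the clusters, 2 chromosome 17 genes were at least 2-fold higher, each in a different comparison. This was 1 of 40 in TKO_602 against TKO (11.0% of all genes) and 1 of 40 in TKO_602 against TKO_FL (6.75%), both below the background. Zfp523, the mouse counterpart of human ZNF76, had 6.76, 9.05 and 15.0 CPM (log2 1.04 in TKO_602 against TKO, interval 0.77 to 1.54). Its relative Zfp143 on chromosome 7, which encodes a promoter-binding activator, had 30.3, 31.2 and 63.4 CPM (log2 1.04, interval 0.89 to 1.25). Both had their highest level in TKO_602, with like folds. Zfp40 had 5.17, 2.39 and 7.10 CPM, a log2 fold of 1.26 in TKO_602 against TKO_FL (interval 0.93 to 2.27). The abundant Zfp598 differed little, at 159, 142 and 169 CPM, as did Zfp13, at 19.4, 18.6 and 17.1.

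**Figure D4:**
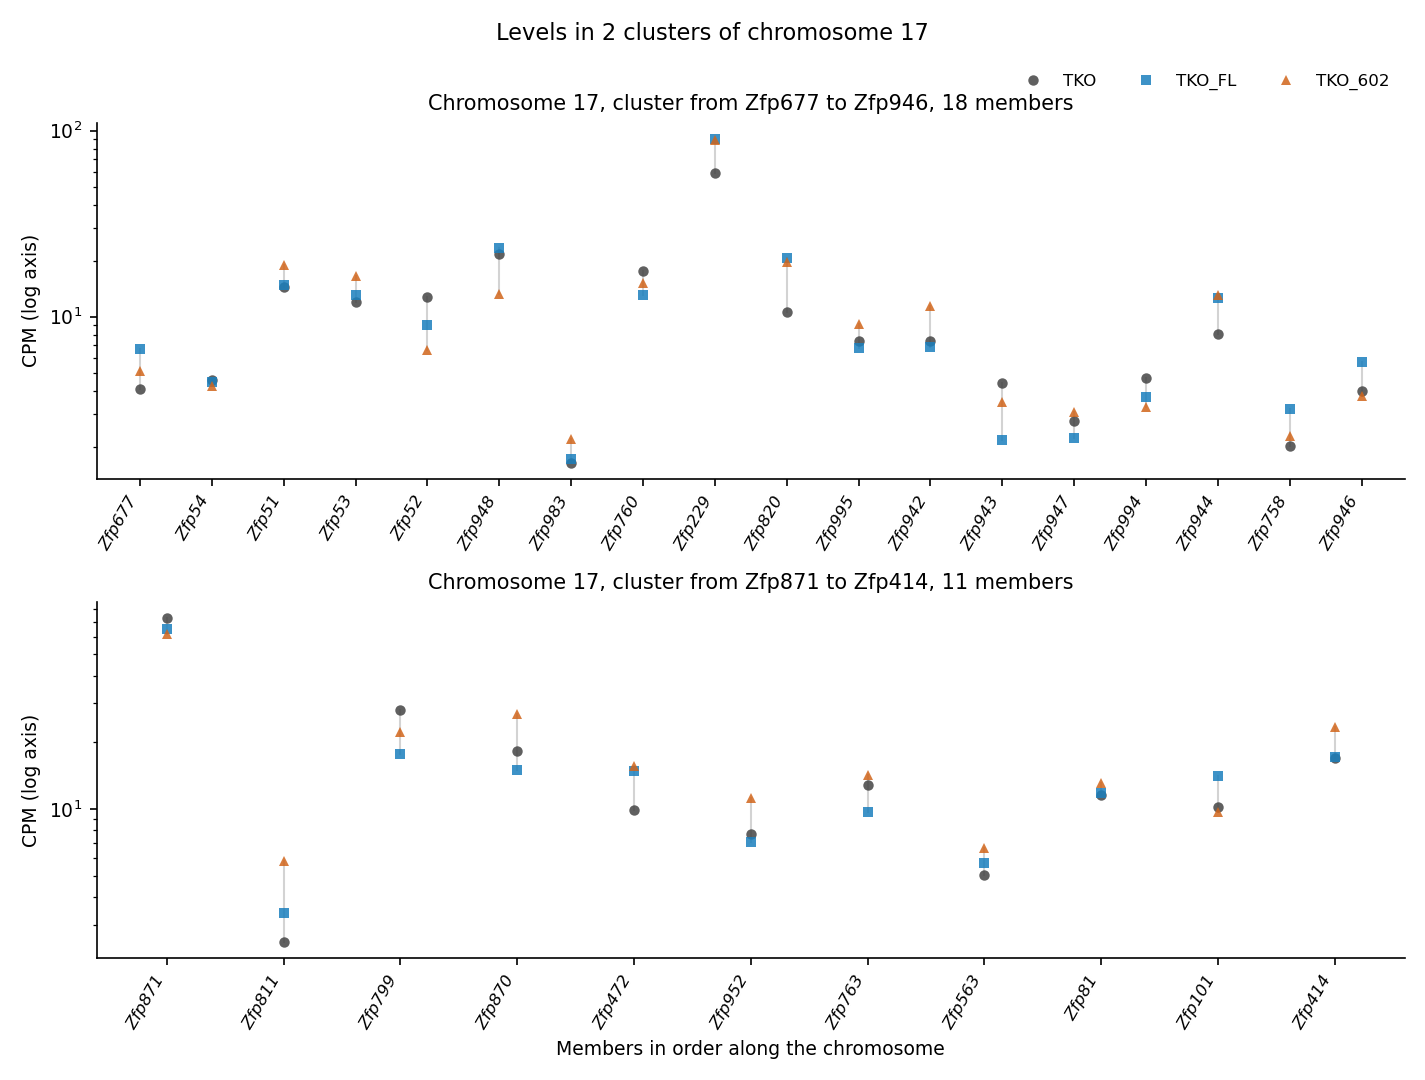
CPM (vertical axes, log scale) in 2 chromosome 17 clusters, genes in their order along the chromosome (horizontal axes), with 1 symbol per library and a grey line joining the 3 libraries of a gene. The symbols of each gene lie within 2-fold of each other on the CPM plus 1 scale, and Zfp229 stands above the rest of the upper cluster.

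Over all members, TKO_602 lay lower than TKO in more genes past 2-fold than it lay higher. Of 156 measured, 5 were at least 2-fold higher, against 11.0% of all genes, and 13 at least 2-fold lower, against 8.06%, and with library totals as the only scaling the counts were 8 and 13. The share lower was close to the background and the share higher below it. Below 0 lay 77 of 156, against 48.0% of all genes, and the counting interval was wholly above 0 for 46 (38.9% of all genes) and wholly below 0 for 53 (35.7%). By chromosome, 4 higher and 9 lower of 88 were on chromosome 7, 0 and 4 of 28 on chromosome 13, and 1 and 0 of 40 on chromosome 17. The medians were -0.06, -0.25 and 0.19, against 0.07, -0.03 and 0.10 for the other genes of the same chromosomes. The chromosome 7 median turned to 0.02 with library totals, while those of chromosomes 13 and 17 kept their sign under every alternative tried, chromosome 13 between -0.52 with a filter at 5 CPM and -0.11 with no filter, and chromosome 17 between 0.12 and 0.28. Numbered Zfp genes elsewhere had 3 higher and 15 lower of 178. TKO_602 against TKO_FL had 13 at least 2-fold higher and 4 lower of 155, against 6.75% and 4.87% of all genes (10 higher and 12 lower of 178 elsewhere), and 11 of the 13 and 3 of the 4 were on chromosome 7. Of all 155, 71 lay below 0, against 47.7% of all genes, with the counting interval wholly above 0 for 50 (35.5%) and wholly below 0 for 41 (32.7%). Those counts on chromosome 7 became 10 and 5 with DESeq2's size factors, and on chromosome 13 the 1 and 1 became 3 and 0 with library totals. Zfp61 led that comparison (log2 1.85, interval 1.63 to 2.91), followed by Zfp30 (1.78) and Zfp688 (1.45), and Zfp819 was lowest (-1.60), followed by Zfp936 (-1.14) and Zfp296 (-1.11). Zfp459 (-1.002) and Zfp143 (1.001) lay just past the threshold, and Zfp112 (-0.9999) and Zfp428 (-0.99) just short of it.

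Neighbours within a cluster were set beside genes on different chromosomes to see how close their folds lay. In TKO_FL against TKO the median absolute difference in log2 fold was 0.43 over 104 pairs of consecutive measured genes of a cluster and 0.42 over 7104 pairs of genes on different chromosomes. In TKO_602 against TKO it was 0.66 and 0.60, and in TKO_602 against TKO_FL 0.60 and 0.54. Pairs share genes and libraries, so these medians are a description. In TKO_FL against TKO the consecutive pairs ranged from Zfp995 and Zfp942, with log2 folds of -0.10 each, to Zfp59 and Zfp974, with 1.15 and -0.73. Zfp595 and Zfp953, which share exonic bases as given above, differed by 0.04. Of the divergent pairs, Zfp944 and Zfp758 (52 bases between starts) had 8.06, 12.6 and 13.1 CPM and 2.03, 3.17 and 2.28, both lowest in TKO. Zfp942 and Zfp943 (94 bases) had 7.44, 6.86 and 11.5 and 4.39, 2.18 and 3.46, both lowest in TKO_FL. In each of these pairs the genes shared their lowest library and not their highest. Zfp668 and Zfp646 (864 bases) had 18.9, 18.4 and 12.2 and 66.8, 78.8 and 77.2, and shared neither. Several of these orders lie within counting error. The interval of Zfp942 in TKO_FL against TKO was -0.61 to 0.38, and that of Zfp758 in TKO_602 against TKO was -0.59 to 0.97. That of Zfp944 in TKO_602 against TKO_FL was -0.25 to 0.38.

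**Figure D5:**
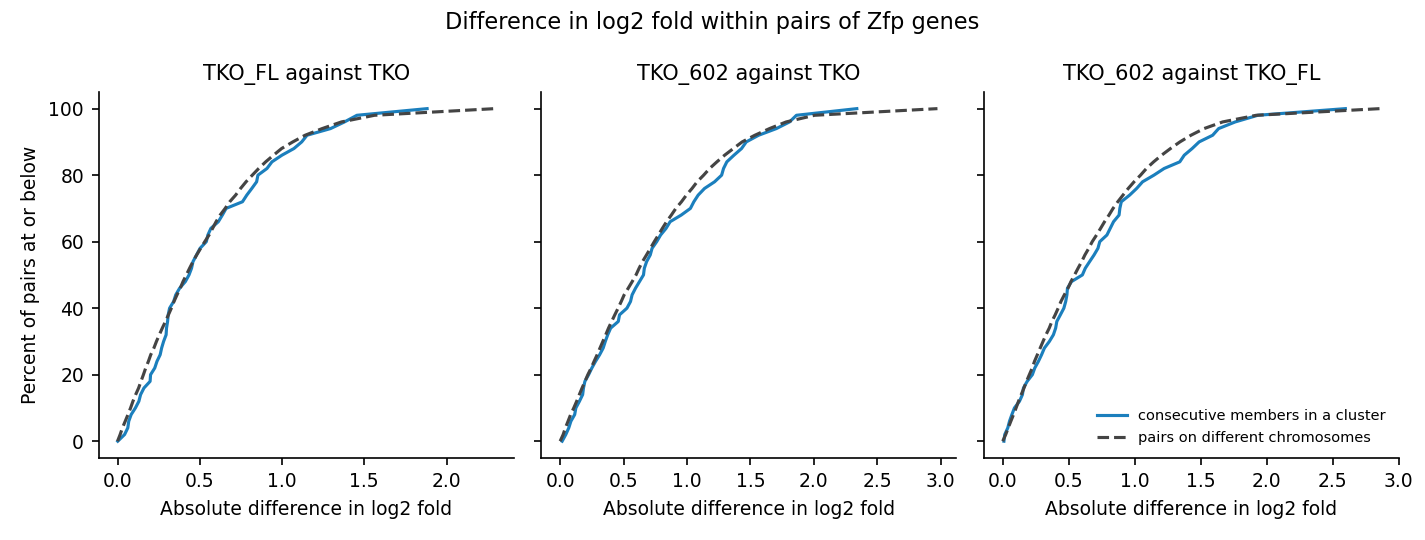
Percent of pairs (vertical axis) whose absolute difference in log2 fold is at or below the value on the horizontal axis, for consecutive genes of a cluster (solid line) and for genes on different chromosomes (dashed line), in the 3 comparisons. The lines run close together, with medians of 0.43 and 0.42, 0.66 and 0.60, and 0.60 and 0.54.

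Promoter letters and folds were set side by side as descriptions. The 21 measured genes with the 13-letter word had a median log2 fold of -0.35 in TKO_FL against TKO (17 below 0) and the 120 without it -0.10 (72 below 0). On chromosome 13 the medians were -0.46 for 8 genes with it and -0.19 for 16 without, and on chromosome 7 -0.23 for 13 and -0.12 for 68. In TKO_602 against TKO they were -0.58 and 0.11 on chromosome 13 but 0.20 and -0.09 on chromosome 7. In that comparison the word thus went with lower folds on chromosome 13 and higher folds on chromosome 7. In TKO_FL against TKO it went with lower folds on both. Most promoters with it lie in 1 cluster per chromosome, 9 of 13 in Zfp84 to Zfp146 and 8 of 9 in Zfp712 to Zfp273. All measured genes of these clusters had medians of 0.20 and -0.41 in TKO_602 against TKO, and the word and the cluster were not separated. The 3 measured chromosome 13 genes with the CRE had folds with a median of -0.90 and -1.09 in the 2 comparisons with TKO, and 2 of them are the overlapping Zfp595 and Zfp953. The 9 chromosome 17 genes with an E-box had medians of -0.10 and 0.11, against 0.02 and 0.17 for the 27 without. Across the 141 measured genes with a promoter, the number of CG dinucleotides had a Spearman's rho of 0.08 with the fold in TKO_FL against TKO and 0.17 with that in TKO_602 against TKO. Genes are not independent replicates and share the same libraries, and correlations this weak are no finding.

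The co-repressor through which KRAB proteins act was read from a list of 18 genes. None passed 2-fold in TKO_FL against TKO (median log2 fold -0.17), where 3.24% of all genes were higher and 2.5% lower. In TKO_602 against TKO 2 were at least 2-fold lower (median -0.35, background 8.06% of all genes). In TKO_602 against TKO_FL 1 was at least 2-fold lower (median -0.18, background 4.87%). None was at least 2-fold higher in any of the 3 comparisons. Of all genes, 3.24% were in TKO_FL against TKO, 11.0% in TKO_602 against TKO and 6.75% in TKO_602 against TKO_FL. Trim28, the scaffold, had 2337, 1753 and 1101 CPM, and Smarcad1, a chromatin remodeller that binds TRIM28, had 345, 272 and 106. Both were lowest in TKO_602. Setdb1 had 165, 136 and 137 CPM, within 2-fold in all comparisons.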

How the data were processed

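Per the submitters' processing notes, the genome was mm10, and featureCounts (of Subread), HISAT2, SAMtools and Trim Galore were used. The authors' deposited gene counts were made with featureCounts 2.0.6 in paired mode, per the file headers, with neither a strand nor a multi-mapping option. Reads were counted singly, antisense partners cannot be told apart, and reads on exons shared by 2 genes or on near-identical copies are left out; 12 members share exonic bases with another gene. The authors' deposited gene signal table has values for TKO and TKO_FL that sum to 10000000 per column; they were divided by 10 and used as TPM in an alternative only. No sample's labels match 11 further columns of each table, which were not used.

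CPM used TMM factors (0.980, 0.983 and 1.04 for TKO, TKO_FL and TKO_602) from edgeR 4.0.16 in R 4.3.3, with a pseudocount of 1, over genes with at least 1 CPM in either library. Further steps used Python 3.11.15, numpy 2.4.6, pandas 2.3.3 and scipy 1.17.1, and figures matplotlib 3.10.9. Libraries were grouped by the genotype in their labels, and with 1 library per genotype no test was run and no precision beyond counting error is known. Intervals take 2 reads as 1 fragment. PCR duplicates are not removed by them. The fold step was tested on simulated data.

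The members and lists were chosen with earlier results of these data known. Named genes are the 5 highest per chromosome by level per kilobase, in each comparison the 6 members with the highest and the 6 with the lowest fold (at least 5 CPM in either library), and the highest, lowest and past-2-fold members of each cluster. The genes at the ends of clusters, those whose promoters are shown and other members outside this rule were named after their values were seen, and the 13-letter word and the divergent pairs were looked for after the sequences were seen. Alternatives were other pseudocounts, filters, thresholds, scalings and cluster gaps, DESeq2 1.42.0 size factors, the deposited TPM, and leaving out members with shared exons; TMM factors from TKO and TKO_FL alone were added after the data were seen. Zinc finger counts and protein identities were not computed here.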

Additional observations from a re-analysis of the deposited data

How the results depend on the processing

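No paired analysis was possible because each genotype has 1 library, and for the same reason no library could be left out. Leaving out members with proteins at least 90% identical was not run. In TKO_602 against TKO, the 5 members at least 2-fold higher became 8 with library totals, 10 with a pseudocount of 0.1 CPM, 0 with one of 5 CPM and 20 at 1.5-fold, and the 13 lower became 4 with a pseudocount of 5 CPM and 32 at 1.5-fold. In TKO_602 against TKO_FL, the 13 higher became 4 with a pseudocount of 5 CPM and 25 at 1.5-fold, and the 4 lower became 8, 2 and 21 with pseudocounts of 0.1 and 5 CPM and at 1.5-fold. In TKO_FL against TKO, the 3 higher became 12 at 1.5-fold, and the 4 lower became 2 with the deposited TPM, 8 and 0 with pseudocounts of 0.1 and 5 CPM, and 22 at 1.5-fold. A pseudocount of 5 CPM shrinks, and one of 0.1 CPM widens, the folds of low genes by construction. The other 115 alternative values stayed within set tolerances. They covered these counts, the chromosome medians, the number and size of clusters and the differences between neighbours. Counts among them stayed within 1.5 times and differences between neighbours within 0.1. Chromosome medians moved by no more than a tolerance taken from the width of the members' counting intervals. That width is one of single genes, so a median near 0 could change sign within it. In TKO_602 against TKO_FL the chromosome 13 median did so under 2 of 7 alternatives, lying between -0.02 and 0.04. The chromosome 7 median in TKO_602 against TKO did so under 1 of 7. Among cluster medians, that of Zfp936 to Zfp819 went from -1.14 to -0.80 in TKO_602 against TKO and from -0.84 to -0.50 in TKO_602 against TKO_FL with a pseudocount of 5 CPM, and that of Zfp787 to Zfp28 went from -0.01 to 0.46 in TKO_602 against TKO with a filter at 5 CPM. The median of the cluster from Zfp628 to Zfp580 in TKO_602 against TKO turned from -0.38 to 0.076 with a filter at 5 CPM, which leaves fewer genes; the cause was not tested further. Of the log2 folds of named members, 1185 values moved by no more than a tolerance taken from the width of their counting interval. Another 9 moved further. Depth limits the genes of a few CPM. Members with intervals over 1 log2 unit wide in at least 1 comparison include Zfp773, Zfp14, Zfp458 and Zfp712. They also include Zfp61, Zfp764, Zfp40, Zfp629, Zfp27, Zfp112 and Zfp595, all named above.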
